A study of Mus musculus with 5 samples.

Results

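C/D box small nucleolar RNAs (snoRNAs), the Snord genes, were examined in ribosome profiling (RIBO-seq) libraries of mouse embryonic stem cells (mESCs). The members were chosen by a rule that used measured values, namely that 1 or more of the 5 libraries, with duplicate reads removed, reach 1 CPM (read counts scaled to a common library size of 1000000). The count table lists 98 C/D box snoRNA transcripts with 97 gene symbols, of which 29 transcripts with 28 symbols reached that level, among 66972 of all 135276 transcripts that did. The single repeated symbol was Snord80, whose transcripts of 81 and 77 nt overlap and carried identical counts in every library, so that their reads entered the table through both rows. The other 69 C/D box snoRNA transcripts stayed below 1 CPM, 49 of them with at least 1 count, and the remaining 20 were at 0 in every library even with duplicates kept.

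Standard RIBO-seq gave 3 libraries and AHARIBO RIBO-seq gave 2, and the labels number them as replicates from mESCs. All of the cells were grown with LIF at 1000 units/ml and 10% fetal bovine serum and were exposed to the elongation inhibitor cycloheximide before harvest, and every lysate received 1.3 U of RNase I for a digestion of 45 min. In standard RIBO-seq, ribosomes were pelleted through 30% sucrose for 2 h. AHARIBO RIBO-seq rests on the methionine analog L-azidohomoalanine (AHA), which nascent peptides take up. In the paper's labeling protocol, cells are depleted of methionine, given AHA and then treated with sBlock, a reagent that contains anisomycin. The paper's ribosome profiling methods do not restate these steps for either method. For AHARIBO RIBO-seq, lysates were clicked to 50 µM of a biotin-DBCO conjugate for 1 h and ribosomes were drawn out on magnetic beads. RNA fragments of 25 to 35 nt were then cut from a gel in both methods and read as single ends of 50 bp. The cushion and the bead capture each belong to 1 method, as AHA labeling may, so their parts in any difference cannot be told apart. All cells are of 1 type, mESCs. The depth ranged from 6403651 to 11150527 counts per library, so that 1 count was worth between 0.0875 and 0.159 CPM. All 10 pluripotency markers examined, such as Pou5f1 and Nanog, were above 1 CPM, with a summed level of 1542 to 1642 CPM in standard and 1412 to 1530 CPM in AHARIBO libraries. Of the other lineages, 3 of 5 neural, 3 of 3 endoderm, 0 of 2 mesoderm and 2 of 3 fibroblast markers reached 1 CPM in a library, and their summed levels were at most 42.5, 3.97, 0.952 and 5.04 CPM.

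C/D box snoRNAs are short nuclear RNAs that pair with a target RNA and position the methyltransferase fibrillarin, which adds a methyl group to the ribose of the paired nucleotide. Most of them guide the modification of ribosomal RNA, a few guide U6 spliceosomal RNA, and a small number are needed for cutting or folding the rRNA precursor rather than for methylation. They are named for conserved boxes near their ends, box C and box D, and in mammals most are released from introns of host genes, many of which encode ribosomal proteins or are long noncoding RNAs. They act in the nucleolus, away from translating ribosomes, and at 66 to 238 nt the members were longer than the fragments that were sequenced, so each read stands for a piece of a snoRNA.

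The sequences of the members on which the results turn are given 5′ to 3′ from the Gencode M21 transcripts (GRCm38), with the box C letters TGATGA in capitals where they lie within the first 20 bases and the last CTGA within the final 15 bases, box D, also in capitals, read on the snoRNA's own strand. The first 4 are the members whose adjusted p was below 0.05, the next 2 were among the most abundant, and the last pair are near copies of each other from the introns of Hspa8.
Snord14e, 90 nt, chr9:40804748-40804837, plus strand: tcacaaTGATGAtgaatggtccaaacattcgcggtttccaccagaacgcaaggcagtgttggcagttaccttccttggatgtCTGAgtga
Snord118, 135 nt, chr11:69073427-69073561, plus strand: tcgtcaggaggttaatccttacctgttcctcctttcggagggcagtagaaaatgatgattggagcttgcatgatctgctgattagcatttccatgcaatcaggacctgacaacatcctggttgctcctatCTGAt
Snord60, 78 nt, chr17:24528476-24528553, plus strand: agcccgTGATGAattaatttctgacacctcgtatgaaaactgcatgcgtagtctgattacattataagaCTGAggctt
Snord89, 110 nt, chr1:39548745-39548854, minus strand: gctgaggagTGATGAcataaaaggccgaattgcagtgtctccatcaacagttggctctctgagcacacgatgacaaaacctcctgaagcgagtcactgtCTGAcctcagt
Snord80, 81 nt, chr1:161037601-161037681, plus strand: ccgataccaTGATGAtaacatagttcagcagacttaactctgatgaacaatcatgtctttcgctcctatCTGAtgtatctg
Snord67, 111 nt, chr2:91596070-91596180, plus strand: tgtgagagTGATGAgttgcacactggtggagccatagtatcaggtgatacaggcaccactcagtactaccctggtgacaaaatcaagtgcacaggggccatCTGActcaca
Snord14c, 86 nt, chr9:40803583-40803668, plus strand: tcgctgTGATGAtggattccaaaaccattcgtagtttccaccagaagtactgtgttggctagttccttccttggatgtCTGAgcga
Snord14d, 86 nt, chr9:40803995-40804080, plus strand: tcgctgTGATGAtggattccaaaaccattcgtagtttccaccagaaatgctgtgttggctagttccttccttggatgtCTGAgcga

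Both sets of letters marked the class in the table. The box C letters were found in 24 of the 29 members (82.8%) and in 70 of all 98 C/D box snoRNA transcripts (71.4%), against 0 of 42 H/ACA box snoRNAs, the other large snoRNA class, which guides pseudouridylation. The box D letters were found in all 29 members, in 92 of the 98 (93.9%) and in 3 of the 42 H/ACA box snoRNAs (7.14%). In Snord118 the letters TGATGA first occur at base 53, inside the RNA and beyond the window searched.

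Most members lay inside other transcripts of the table. Of the 29, 15 have a protein-coding host gene on the same strand, 12 have a noncoding host, and 2, Snord118 and Snord13, have none, as these are transcribed from their own promoters. Introns of ribosomal protein genes held Snord100 (Rps12), Snord15b (Rps3), Snord33 (Rpl13a) and Snord83b (Rpl3). The noncoding hosts included Gas5 (Snord80), Snhg5 (Snord50a and Snord50b), Snhg12 (Snord99) and Zfas1 (Snord12). For 20 of the 29 members the whole snoRNA falls within an exon of another listed transcript, mostly a transcript of the host that retains the intron, and each containing transcript had at least as many reads as its snoRNA in all 5 libraries. The sources used here do not say how reads that match several transcripts were counted, so a read of such a member could be a piece of the snoRNA or of the intron-retaining transcript. Only 7 members shared no stretch of 25 bases with any other transcript, namely Snord13, Snord83b, Snord23, Snord55, Snord49a, Snord89 and Snord17.

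C/D box snoRNAs took about 2 times as large a share of the reads in AHARIBO as in standard RIBO-seq. Summed over all 98 rows, whether or not they reached 1 CPM, they held 229, 313 and 167 reads in the standard libraries and 621 and 601 reads in the AHARIBO libraries. These were 0.00255%, 0.00344% and 0.00261% of the counts in standard replicates 1, 2 and 3, and 0.00557% and 0.00603% in AHARIBO replicates 1 and 2. Both AHARIBO libraries lay above all of the standard libraries, and the exact binomial 95% intervals of the AHARIBO libraries, 0.00514 to 0.00603% and 0.00555 to 0.00653%, did not meet the highest of the standard intervals, 0.00307 to 0.00384%. These intervals cover counting error only. No molecular identifiers are mentioned in the sources used here, so reads may not be independent molecules, and the reads of Snord80 entered through both of its rows. The means were 0.00286% ± 0.000497 (SD, n = 3) and 0.00580% ± 0.000323 (SD, n = 2), a ratio of 2.02, and the two-sided exact permutation test gave p = 0.1, the smallest value that 2 libraries against 3 can give. Without the rows that lie inside another transcript the shares were 0.00133% ± 0.000212 and 0.00260% ± 0.000136, a ratio of 1.95. These counts do not tell pieces of free snoRNA particles from other RNA carried along with the ribosomes.

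**Figure D1:**
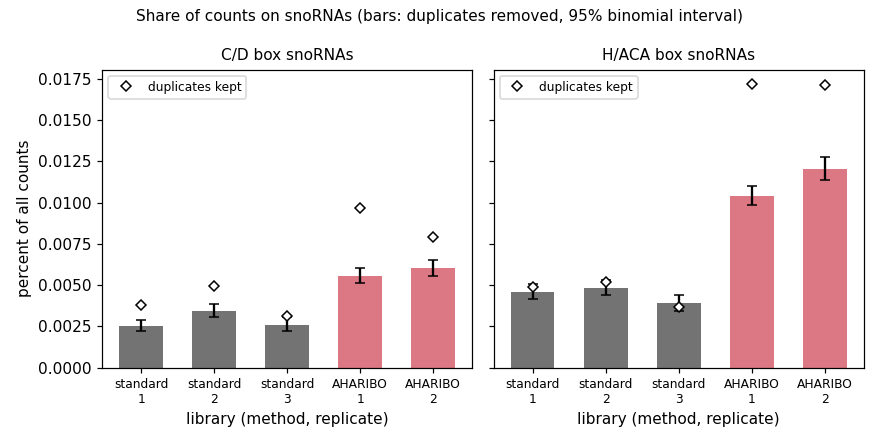
Percent of all counts on C/D box (left) and H/ACA box (right) snoRNAs in the 3 standard and 2 AHARIBO libraries; bars are counts without duplicates with exact binomial 95% intervals, and open diamonds are counts with duplicates kept. For C/D box snoRNAs the standard bars stand between 0.00255 and 0.00344% and the AHARIBO bars at 0.00557 and 0.00603%.

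H/ACA box snoRNAs differed between the methods in the same direction. Their share of the counts was 0.00443% ± 0.000486 (SD, n = 3) in standard and 0.0112% ± 0.00115 (SD, n = 2) in AHARIBO libraries, a ratio of 2.53 (two-sided exact permutation p = 0.1). Within a library, the log2 ratio of C/D box to H/ACA box reads was −0.84, −0.49 and −0.58 in the standard and −0.90 and −0.999 in the AHARIBO libraries. Both AHARIBO values were the lower, but standard replicate 1 lay close to them, and the difference of −0.31 in the mean log2 ratio had a two-sided exact permutation p of 0.2. Without the snoRNAs of both classes that lie inside another transcript, the log2 ratio was −0.79, −0.57 and −0.74 in the standard and −0.91 and −1.20 in the AHARIBO libraries, which did not overlap (difference −0.36, two-sided exact permutation p = 0.1, the smallest possible).

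The 1 CPM rule favoured the AHARIBO libraries. The number of C/D box snoRNA transcripts with at least 1 CPM was 7, 9 and 5 in the standard and 19 and 27 in the AHARIBO libraries. All 29 members reached the level in an AHARIBO library and 11 of them in a standard library as well. The other 18 were thus chosen for a high AHARIBO value. In these the highest AHARIBO library had to exceed every standard one, although the groups could still overlap. Just inside the level were Snord38a at 1.05 CPM, and Snord99 and Snord52, each at 1.10 CPM, in their highest library. Just outside were Snord47 at 0.962, Snord16a at 0.899 and Snord87 at 0.875 CPM. A single read could decide membership near the level, as Snord47 had 11 reads and Snord38a 12 reads in AHARIBO replicate 1.

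Across the members, which the rule partly chose for this, the log2 fold change (AHARIBO over standard) ranged from 0.07 to 3.12 with a median of 1.31, beside a median of 0.00 over the 66972 transcripts tested. It was above 0 in all 29, and in 18 both AHARIBO libraries lay above all of the standard libraries, a pattern held by 17.3% of all transcripts tested. An adjusted p of 0.05 in edgeR's quasi-likelihood test was passed by 4 of the 29, all higher in AHARIBO, beside 2.27% of all transcripts called higher. At an unadjusted p below 0.05 in edgeR there were 15. The share of all transcripts at that level is not given here, so such counts, in this and the other fits, are a description. Of the 4, Snord118 alone had reached 1 CPM in a standard library. Among the 10 members with a mean of at least 1 CPM over the 5 libraries, a filter that does not favour either method as strongly, the median was 0.47 and 2 were called, Snord118 and Snord60. Among the 11 that reached the level in a standard library the median was 0.40. Snord80 entered each of these counts through both of its rows.

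**Figure D2:**
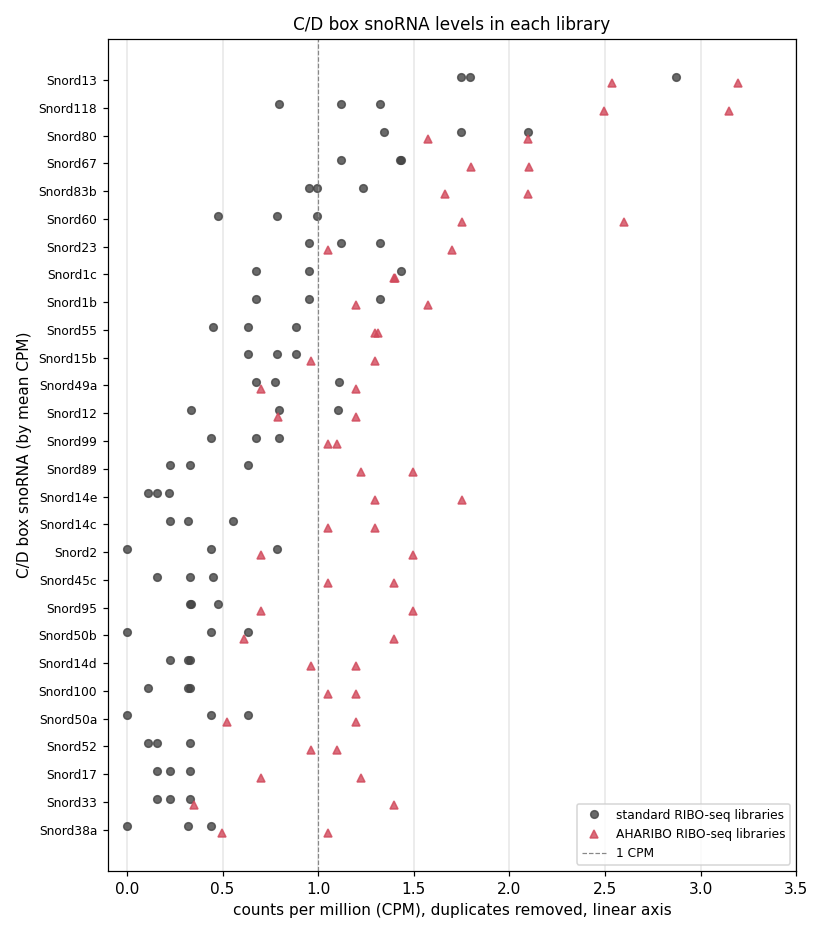
Level of each C/D box snoRNA in CPM without duplicates (linear axis) in the 3 standard (circles) and 2 AHARIBO (triangles) libraries, ordered by mean level, with a dashed line at 1 CPM; Snord80 is drawn once for its 2 identical rows. The AHARIBO triangles of Snord118, Snord60, Snord89 and Snord14e lie to the right of all their circles, whereas those of Snord80, Snord23 and Snord49a are mixed with them.

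Snord118 encodes the U8 snoRNA, which is needed to process the large-subunit rRNA precursor and does not guide methylation. It was counted 10, 12 and 5 times in the standard libraries and 36 and 25 times in the AHARIBO libraries, or 1.12, 1.32 and 0.793 against 3.15 and 2.50 CPM. Both AHARIBO values exceeded every standard value by more than the spread within either method. The log2 fold change was 1.34 ± 0.33 (SE; edgeR adjusted p = 0.0089), and the ratio of the pooled counts per depth was 2.56 with an exact 95% interval of 1.60 to 4.19 that covers counting error only. Snord118 lies in no other transcript, although 36.0% of its 25-base windows also occur in the predicted snoRNA Gm24208.

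Snord13, the U13 snoRNA that directs acetylation of small-subunit rRNA, had the highest mean CPM of the members over the 5 libraries with duplicates removed. Its levels were 1.79, 2.87 and 1.75 CPM in the standard and 2.54 and 3.20 CPM in the AHARIBO libraries. Standard replicate 2 lay between the AHARIBO values, and the log2 fold change of 0.38 ± 0.28 (SE) had an edgeR adjusted p of 0.49. The pooled ratio was 1.30 with a counting interval of 0.887 to 1.92, which ends below the pooled ratio of Snord118. The difference between the fold changes of these 2 members without a host was not tested.

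Snord14c, Snord14d and Snord14e are copies of the U14 snoRNA, which is required for making small-subunit rRNA, and lie in introns of Hspa8, the gene of a constitutive heat shock chaperone. Snord14e was counted 1, 2 and 1 times in the standard and 20 and 13 times in the AHARIBO libraries. It was a member through its AHARIBO values alone, so its fold change and p come from values that the rule used and are given as a description. The fold change was the largest of the members, a log2 value of 3.12 ± 0.65 (SE; edgeR adjusted p = 0.0023), and a pooled ratio of 9.34 with a counting interval of 3.32 to 36.3, wide because the standard libraries held 4 reads in all. Snord14c was counted 2, 5 and 2 against 12 and 13 times, and Snord14d 2, 3 and 2 against 11 and 12 times. In both, the AHARIBO libraries stood above the standard ones, with log2 fold changes of 1.62 ± 0.60 and 1.85 ± 0.65 (SE) and edgeR adjusted p of 0.11 and 0.089. As 56% of the 25-base windows of Snord14c and of Snord14d are shared between them, their reads cannot be fully told apart.

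All 3 were members through their AHARIBO values alone. The Hspa8 transcript that retains these introns was counted 4602, 4610 and 3504 times in the standard and 5270 and 5233 times in the AHARIBO libraries, with a log2 fold change of −0.10 ± 0.08 (SE; edgeR adjusted p = 0.52). Its difference from the snoRNAs was not tested. The most abundant Hspa8 mRNA stood at 560 ± 24.8 CPM (SD, n = 3) in standard and 520 CPM in AHARIBO libraries, with a log2 fold change of −0.11. Per kb of transcript, the Hspa8 mRNA was 28.4 times as abundant as the highest of its 3 snoRNAs.

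Snord60, a guide for large-subunit rRNA, is placed by the annotation within the noncoding antisense transcript Rab26os. It stood at 0.784, 0.993 and 0.476 CPM in the standard and 1.75 and 2.60 CPM in the AHARIBO libraries. Both AHARIBO values were above the highest standard value and alone made it a member, as its highest standard value was just below 1 CPM. As the rule used these values, the log2 fold change of 1.44 ± 0.40 (SE; edgeR adjusted p = 0.023) is given as a description. The count of Snord60 over the 5 libraries was 68.4% as large as that of Rab26os, which had nearly the same log2 fold change, 1.43 ± 0.31 (SE; edgeR adjusted p = 0.0036). Rab26os held at least as many reads as Snord60 in every library. How reads that match both were counted is not stated in the sources used here, so the rows may share them, as the identical rows of Snord80 do.

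Snord89, a member through its AHARIBO values alone, lies in an intron of the noncoding gene Gm15832 and shares no 25-base window with another transcript. It was counted 2, 3 and 4 times in the standard and 14 and 15 times in the AHARIBO libraries, or 0.224, 0.331 and 0.635 against 1.22 and 1.498 CPM. The groups did not overlap, and the log2 fold change was 1.83 ± 0.57 (SE), just past the threshold (edgeR adjusted p = 0.0496), values given as a description since the rule used them. Gm15832, the only gene found to contain it on its strand in this annotation, averaged 0.0902 CPM in standard and 0.144 CPM in AHARIBO libraries and was not tested, since it did not reach 1 CPM in any library.

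Each of the 4 calls was lost in at least 1 of the fits with a library left out. With an AHARIBO replicate left out, the lone AHARIBO library is assumed to vary as the standard libraries do, so a lost call there also reflects the smaller design. Without AHARIBO replicate 1 none of the 29 passed an adjusted p of 0.05 in edgeR, with 15 at an unadjusted p below 0.05, and without AHARIBO replicate 2 there were 2 calls, Snord118 and Snord14e. Without standard replicate 1 only Snord14e was called, and without standard replicates 2 or 3 there were 3 calls each. Snord89 lost its call without standard replicate 1 (edgeR adjusted p = 0.20) or 2 (0.12) or without either AHARIBO replicate (0.24 and 0.19). Snord60 lost its own without standard replicate 1 (0.091) or 3 (0.083) and without AHARIBO replicate 1 (0.056) or 2 (0.21), and Snord118 without standard replicate 1 (0.0503) and AHARIBO replicate 1 (0.27). Snord14e lost its call without AHARIBO replicate 1 (0.13). The direction held in each of these fits, which kept the members chosen with all 5 libraries. Snord14e, Snord60 and Snord89 were members through their AHARIBO values alone, so the rule favoured that direction and it is a description.

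Among the 18 members chosen through their AHARIBO values alone were those just short of the threshold, so their higher AHARIBO values were built in and are given as a description. Snord100, a guide for small-subunit rRNA in Rps12, was counted 1, 3 and 2 times in the standard and 12 and 12 times in the AHARIBO libraries (log2 fold change 2.12, edgeR adjusted p = 0.054). Snord52 was counted 1, 3 and 1 times against 11 and 11 times (2.25, adjusted p = 0.058), and Snord45c 4, 3 and 1 times against 12 and 14 times (1.84, adjusted p = 0.067). In these 3 the lowest AHARIBO count was at least 3 times the highest standard count. Snord17, the longest member at 238 nt and one that lies in an intron of Snx5 with no shared stretch, was counted 2, 3 and 1 against 14 and 7 times (1.93, adjusted p = 0.11). Its AHARIBO libraries both lay above the standard ones but 1 had 2 times the reads of the other.

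The other abundant members had log2 fold changes below 1 and none was called. Snord80 stood at 1.34, 2.10 and 1.75 CPM in the standard and 1.57 and 2.10 CPM in the AHARIBO libraries. These values overlapped fully, with a log2 fold change of 0.07 ± 0.33 (SE; edgeR adjusted p = 0.94) and a pooled ratio of 1.05 with a counting interval of 0.662 to 1.67. Snord23, in an intron of the ribosome assembly gene Nop53, and Snord49a likewise overlapped, with log2 fold changes of 0.23 ± 0.41 and 0.18 ± 0.52 (SE). Snord67, a guide for U6 snRNA in Ckap5, stood at 1.12, 1.43 and 1.43 CPM against 2.10 and 1.80 CPM. Its AHARIBO values were the higher without overlap, yet the log2 fold change of 0.57 ± 0.35 (SE) did not pass (edgeR adjusted p = 0.39). For Snord83b in Rpl3 the levels were 1.23, 0.993 and 0.952 against 1.66 and 2.10 CPM, a log2 fold change of 0.79 ± 0.37 (SE; adjusted p = 0.23, unadjusted p = 0.038 in edgeR). These did not overlap either, and the pooled ratio was 1.74 with a counting interval of 1.04 to 2.97.

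The remaining members lay between these. Snord1b and Snord1c, guides for large-subunit rRNA that share about 50% of their 25-base windows with each other, had levels of 0.672 to 1.43 CPM in the standard and 1.20 to 1.57 CPM in the AHARIBO libraries, and log2 fold changes of 0.50 ± 0.43 and 0.44 ± 0.42 (SE). Snord55, a member through its AHARIBO values alone, stood at 0.448, 0.883 and 0.635 against 1.31 and 1.30 CPM, without overlap (log2 fold change 0.97 ± 0.49, SE; edgeR adjusted p = 0.27). Snord15b, Snord12, Snord99, Snord2, Snord95, Snord50a, Snord50b and Snord38a had log2 fold changes from 0.40 to 1.62, each with an edgeR adjusted p of at least 0.16. Only Snord12 among these reached 1 CPM in a standard library. The others were members through their AHARIBO values alone, so their values are a description. Snord50a and Snord50b, near copies in Snhg5 that share 52% of their windows, had 0 reads in standard replicate 1 and 4 each in the other two, against 6 and 12 and 7 and 14 in the AHARIBO libraries, so the groups overlapped in CPM. Snord2 was at 0 reads in standard replicate 3 and at 7 in standard replicate 1, which overlapped with the 8 and 15 reads of the AHARIBO libraries once scaled by depth.

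By role, 5 members belonged to the group of 8 snoRNAs chosen for rRNA processing or acetylation (7 of them in the table), and 2 of the 5, Snord118 and Snord14e, were called higher and none lower, beside 2.27% of all transcripts called higher and 2.24% called lower, with a median log2 fold change of 1.62. Snord14c, Snord14d and Snord14e were members through their AHARIBO values alone, so this count and median are a description. Over all 7 listed rows this group held 104 reads in the standard and 219 reads in the AHARIBO libraries. Of 6 guides for U6 snRNA, 3 were in the table and 1, Snord67, was a member and was not called. Of the 4 snoRNAs in introns of Rpl13a, a group known for responding to metabolic stress, Snord33 alone was a member, with 2, 3 and 1 reads in the standard and 4 and 14 reads in the AHARIBO libraries (log2 fold change 1.72, edgeR adjusted p = 0.20). Snord33 was a member through its AHARIBO values alone, so these values are a description. Its AHARIBO libraries differed so much from each other that replicate 1 barely exceeded the standard ones in CPM. Of the Gas5 snoRNAs, 3 symbols in 4 rows, Snord80 alone was a member, and the 1 Snhg1 snoRNA in the table was not a member.

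None of the 19 listed snoRNAs of the imprinted clusters was a member. All 17 rows of Snord116, the brain-expressed repeat family whose human counterpart is lost in Prader-Willi syndrome, were at 0 reads in every library with or without duplicates. All 17 share stretches of 25 bases with other transcripts, 14 of them in full, and alignment used the default settings of STAR, under which a read that matches more than a set number of places is left unmapped, so these zeros set no limit on the level of the family. The other 3 C/D box snoRNAs at 0 throughout were Snord90, Snord111 and Snord123. For these, a count of 0 allows up to 3 reads, or 0.262 to 0.476 CPM per library, for counting error only and as far as their reads were counted. Among the 78 C/D box rows with at least 1 read, members and others together, the mean level was higher in AHARIBO in 74, both AHARIBO libraries lay above all standard ones in 39, and in 0 both lay below. Over the 66972 transcripts tested, the last 2 patterns were held by 17.3% and 16.5%, and over all 106955 transcripts with at least 1 read by 14.1% and 12.6%, with a higher mean in AHARIBO in 51.1%.

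Host genes were called in both directions, and most were not called. Of 21 host genes, 20 had a most abundant transcript that could be tested, and in edgeR 3 were called higher, 3 lower and 14 neither, beside 2.27% and 2.24% of all transcripts, with a median log2 fold change of −0.11. Those called higher were Rab26os, Snhg12 (0.56 ± 0.15, SE; adjusted p = 0.023) and Ckap5 (0.31 ± 0.08; adjusted p = 0.013). For Snhg12 this holds for its most abundant transcript, as the other two around Snord99 had log2 fold changes of −0.55 ± 0.22 and −0.25 ± 0.19 (SE; edgeR adjusted p = 0.14 and 0.52). Among those called lower were Rack1 (−0.27 ± 0.08; adjusted p = 0.034) and 2410006H16Rik (−0.37 ± 0.10; adjusted p = 0.016). In 19 of the 20 the median fold change of the snoRNAs exceeded that of the host, the exception being Gas5 (host 0.16, Snord80 0.07), although the snoRNAs had been chosen on a rule that favours high AHARIBO values. The 12 protein-coding hosts averaged 18.7 to 544 CPM, whereas the members averaged 0.462 to 2.43 CPM. Per kb of transcript, the host exceeded its highest snoRNA in 14 of the 21, and Snord80 was one that exceeded its host, Gas5, at a host level of 0.309 times its own.

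**Figure D3:**
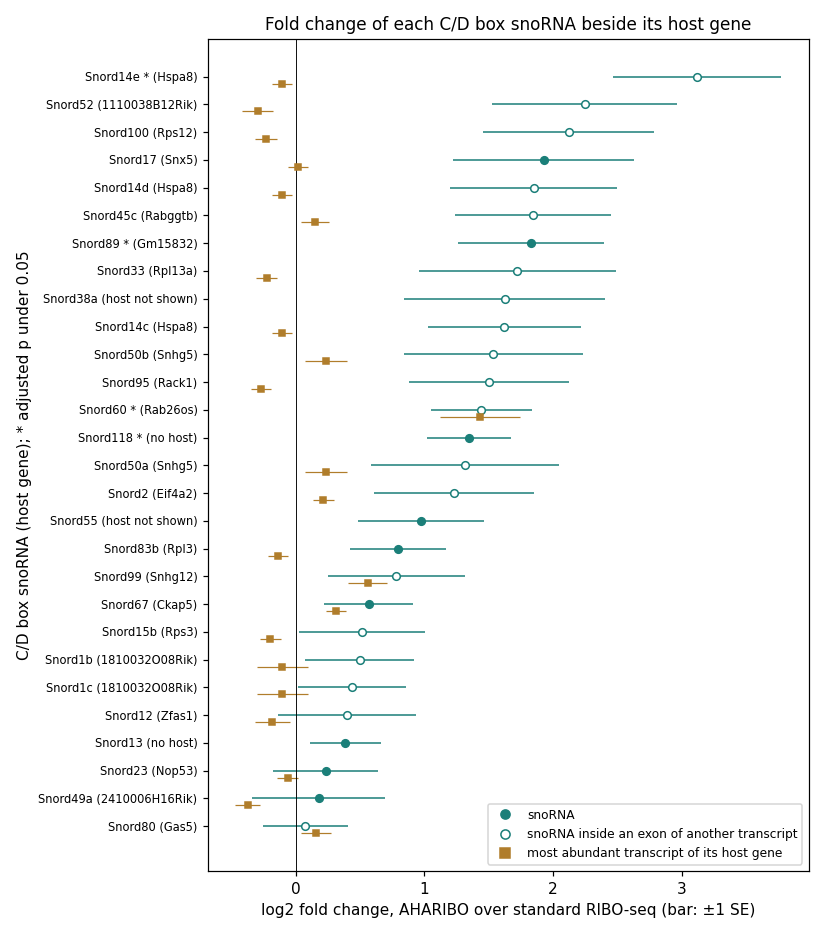
Log2 fold change (AHARIBO over standard, bars ± 1 SE) of each C/D box snoRNA (circles, open where it lies inside an exon of another transcript) and of the most abundant transcript of its host gene (squares, where shown); asterisks mark an adjusted p below 0.05. All circles lie above 0, from 0.07 for Snord80 to 3.12 for Snord14e, whereas the hosts center on −0.11.

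Of 26 transcripts that contain a member, 5 of which are the host transcripts already described, 4 were called higher and 5 lower, beside 2.27% and 2.24% of all transcripts, with a median log2 fold change of −0.08. For the 9 members outside any such exon the median was 0.79 with 2 calls, Snord118 and Snord89, and the 20 inside one had a median of 1.47 with 2 calls. Membership rested on AHARIBO values alone for 15 of the 20 but for 3 of the 9, so the rule itself favoured a higher median inside such exons and the medians are a description. Next to Rab26os and Snhg12, those called higher were a 488-nt transcript of Rps12 around Snord100 (0.78 ± 0.21, SE; adjusted p = 0.019), whereas the other Rps12 transcript around it was at −0.17 ± 0.09 (adjusted p = 0.29), and a transcript of 1110038B12Rik around Snord52 (0.63 ± 0.19; adjusted p = 0.045). How far the reads of Snord100 and Snord52 enter these counts is not known here.

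Genes that encode the C/D box particle were read as ordinary mRNAs and differed little. The 4 core proteins, the methyltransferase Fbl, the scaffold proteins Nop56 and Nop58, and the RNA-binding protein Snu13, averaged 57.0 to 126 CPM, and 0 of 4 were called in edgeR, with log2 fold changes from −0.15 to 0.08. Of 11 assembly and maturation factors, 1 was called higher and 0 lower, beside 2.27% and 2.24% of all transcripts. The median log2 fold change of the 11 was 0.08. The one called was Tgs1, the enzyme that hypermethylates the cap of independently transcribed snoRNAs (0.40 ± 0.11, SE; edgeR adjusted p = 0.024). Its call was lost in DESeq2 (adjusted p = 0.22), with duplicates kept (edgeR 0.058), and without standard replicate 1 (0.091), standard replicate 2 (0.073) or AHARIBO replicate 1 (0.46). Ruvbl1, Ruvbl2, Nolc1, Nufip1 and Dbr1, the last of which opens intron lariats, had log2 fold changes from −0.20 to 0.08 and were not called.

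Duplicate removal changed which C/D box snoRNAs looked abundant. With duplicates kept, the 98 rows held 605, 791 and 353 reads in the standard and 2065 and 1436 reads in the AHARIBO libraries, of which 62.1%, 60.4% and 52.7% and then 69.9% and 58.1% were removed. Their share of all counts was then 0.00393% ± 0.000922 (SD, n = 3) and 0.00881% ± 0.00123 (SD, n = 2), a ratio of 2.24 (two-sided exact permutation p = 0.1). Over all transcripts, 43.6% ± 0.280 (SD, n = 3) of the reads were removed in standard and 46.3% ± 2.01 (SD, n = 2) in AHARIBO libraries. Snord80 entered through both of its rows. With Snord80 counted once the C/D box snoRNAs lost 57.8%, 56.4% and 47.5% in the standard and 67.4% and 55.7% in the AHARIBO libraries, and with Snord80 left out 51.5%, 50.6% and 39.8% against 64.3% and 52.6%, which in standard replicate 3 was less than the 43.8% of all transcripts. The mean without Snord80 was 47.3% ± 6.51 (SD, n = 3) in standard and 58.5% ± 8.26 (SD, n = 2) in AHARIBO libraries. Between the methods their removed share differed by 5.61 percentage points, 58.4% ± 5.04 against 64.0% ± 8.33, with a two-sided exact permutation p of 0.5, and AHARIBO replicate 2 lay within the range of the standard libraries. With Snord80 left out the difference was 11.1 percentage points and the groups no longer overlapped (two-sided exact permutation p = 0.1).

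Single members differed far more than the methods did. Snord80 fell from 605 reads over the 5 libraries to 81, a loss of 86.6%, and Snord49a lost 86.0%, whereas Snord13 lost 11.6%, Snord12 2.50% and Snord33 0%. The median loss of the members was 36.2%, and 10 of 29 lost more than 50%. With duplicates kept Snord80 became the most abundant C/D box snoRNA, at 15.04%, 14.8% and 15.9% of all C/D box reads per row in the standard and 10.3% and 8.91% in the AHARIBO libraries, and Snord13 went from rank 1 to rank 11 by mean CPM. Membership would also change: 28 rows had at least 1 CPM in a library with duplicates kept, of which 7 were not members and from which 8 members were missing. The 7 were Snord93, Snord21, Snord49b, Snord57, Snord69, Snord64 and Snord72. Snord57, which lies in Nop56 and guides small-subunit rRNA, had 2, 3 and 3 reads in the standard and 8 and 7 reads in the AHARIBO libraries without duplicates, but 21, 19 and 16 against 134 and 66 with them, or 11.1 reads for each one retained. Snord21 in Rpl5 had 10.8 reads for each one retained.

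**Figure D4:**
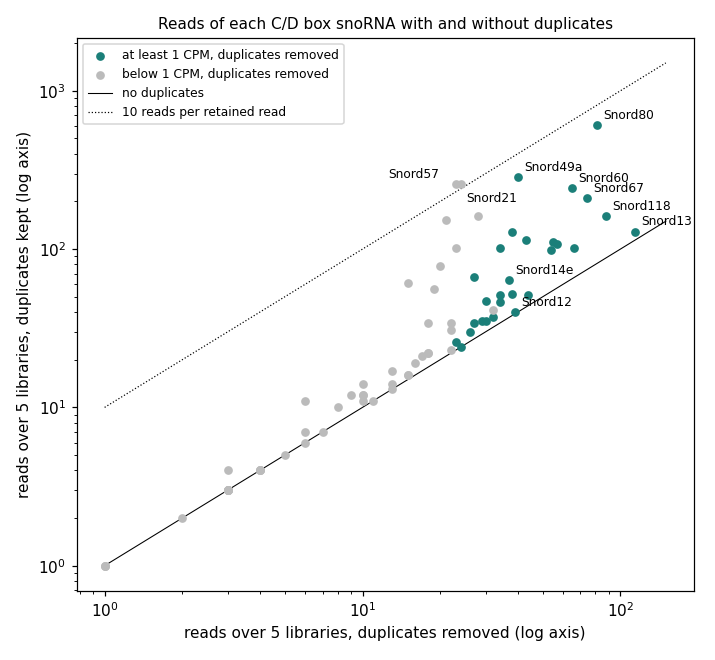
Reads of each C/D box snoRNA symbol with at least 1 read, summed over the 5 libraries, with duplicates removed (x) and kept (y), both on log axes; the solid line marks no duplicates and the dotted line 10 reads per retained read. Snord13 and Snord12 lie near the solid line, Snord80 and Snord49a lie well above it, and Snord57 and Snord21 lie just above the dotted line although they stayed below 1 CPM without duplicates.

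With duplicates kept, the difference between the methods was larger for most members. The median log2 fold change was 1.72 and 9 of the 29 were called in edgeR, all higher in AHARIBO, beside 1.87% of all transcripts called higher. Of the 9, Snord118 alone had reached 1 CPM in a standard library, and the other 8 were members through their AHARIBO values alone, so the count, its direction and the fold changes here are a description. Snord14c, Snord14d, Snord15b, Snord45c, Snord52 and Snord99 were called in addition, and Snord89 was not (edgeR adjusted p = 0.053). Snord99, in Snhg12, went from 6, 4 and 5 reads against 12 and 11 to 9, 12 and 5 reads against 67 and 36, and its log2 fold change from 0.78 ± 0.53 to 2.12 ± 0.32 (SE; adjusted p = 0.0026). Within a library, the log2 ratio of C/D box to H/ACA box reads was then −0.37, −0.07 and −0.25 in the standard and −0.83 and −1.11 in the AHARIBO libraries, which did not overlap (difference −0.74, two-sided exact permutation p = 0.1). H/ACA box snoRNAs lost 45.0% ± 3.76 (SD, n = 3) of their reads as duplicates in standard and 64.8% ± 5.05 (SD, n = 2) in AHARIBO libraries, beside the 58.4% and 64.0% of the C/D box snoRNAs, and the part of duplicate removal in the ratio of the classes was not tested.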

How the data were processed

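RIBO-seq of mESCs was measured in 3 standard and 2 AHARIBO libraries, which were grouped by the labels. The authors deposited raw read counts per transcript, once with duplicates removed and once with duplicates kept. According to the methods and the submitters' processing notes, reads were trimmed with Trimmomatic 0.36, rRNA and tRNA reads were discarded, the rest were aligned with STAR at default settings, which leave reads with more than a set number of matches unmapped, to Gencode M17 transcripts (GRCm38.p6), and antisense reads were dropped. How the other multi-mapping reads were counted and how duplicates were defined is not given in the sources used here. These sources mention no molecular identifiers, so independent fragments with the same ends may be lost with the duplicates. Whether this matters more for short RNAs was not tested. Of the columns of per-sample values, 0 were left unused.

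Gene types, coordinates and sequences came from Gencode M21 (GRCm38), which held 99.8% of the transcripts by identifier without version. CPM used TMM factors of edgeR 4.0.16 (R 4.3.3), and transcripts with at least 1 CPM in any library entered the quasi-likelihood test of edgeR, with no block, and adjusted by Benjamini-Hochberg over all of them. Standard errors came from the fold change and its F statistic and are approximate. The host was the gene of another type on the same strand that contains the snoRNA, and for genes with several transcripts the most abundant was used. Shared sequence was counted in 25-base windows. Ratios of pooled counts have exact conditional binomial intervals at 95%. Shares were compared by exact permutation of the libraries (scipy 1.17.1). The fitting procedure was tested on simulated data. The members and lists were chosen with earlier results of these data known. Named were the 10 most abundant members, those past an adjusted p of 0.05 with no overlap (up to 8 in each direction), the 3 on either side of the 1 CPM level, members of the role and host lists, and the snoRNP genes; Snord100, Snord52, Snord45c, Snord17, Snord2, the hosts, and the snoRNAs named for their duplicates, for shared sequence or for 0 reads were added after their values were seen. Alternatives covered DESeq2 1.42.0, library-size scaling, the filter, duplicates kept, the replicate block, members inside other transcripts, and each library left out. Counting Snord80 once or leaving it out was added after seeing the data. The values of 1 host gene and 1 snoRNA sequence are not reported here.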

Additional observations from a re-analysis of the deposited data

How the results depend on the processing

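The number of members with an adjusted p below 0.05 in edgeR was 4, all higher in AHARIBO, beside 2.27% of all transcripts called higher. It was 8 with no filter on low counts, 2 of 10 with a mean of at least 1 CPM, 9 with duplicates kept, 2 without the members inside other transcripts, and 0 to 3 with each library left out in turn (a lone AHARIBO library being assumed to vary as the standard ones do), edgeR giving 15 members at an unadjusted p below 0.05 where it gave 0. The median log2 fold change of 1.31 became 0.47 with the mean filter, 1.72 with duplicates kept, 0.79 without members inside other transcripts, and 0.75 to 1.42 with each library left out. DESeq2 gave a median of 1.33 but no adjusted p for any of the 29, since its own filter on low means removed them, so no count of calls could be had; 10 had an unadjusted p below 0.05. With a replicate block 3 were called with a median of 1.20, Snord60 being lost (edgeR adjusted p = 0.065). The deviations of same-numbered libraries from their group means had correlations of 0.04 and −0.09. The deviations of the 2 AHARIBO libraries mirror each other, so these values cannot decide whether same-numbered libraries are paired. The paper describes standard RIBO-seq as done on the input, and whether same-numbered libraries share a lysate is not given here. The share of reads stayed higher in AHARIBO under every alternative run, by 0.00127 to 0.00488 percentage points, including with Snord80 counted once. The difference in the share removed as duplicates ranged from −0.28 to 11.5 percentage points with each library left out, turning without AHARIBO replicate 1. Directions that turned with 1 library left out were those of Snord80 (log2 fold change −0.13 to 0.28), Snord23 (−0.13 to 0.55), Snord49a (−0.23 to 0.53), Nop56 (−0.0375 to 0.00054), Znhit3 (−0.0738 to 0.24) and Rpap3 (−0.13 to 0.30). Nop56 also turned with library size in place of TMM (0.0182) and with duplicates kept (0.0253), and Rpap3 with the replicate block (−0.0046). The members held a median of 38 reads over the 5 libraries, and of the members with 40 reads or fewer, none with a pooled ratio below 2 had a counting interval that left out 1.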
